A study of Homo sapiens with 12 samples.

Results

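The 8 genes described here, of 43769 in the count table, belong to the inflammatory caspase, gasdermin and interleukin 18 (IL18) axis. They are the cytokine IL18, its secreted antagonist IL18BP, the sensors AIM2 and NLRP1, the adaptor PYCARD, the proteases CASP1 and CASP4, and the pore-forming protein GSDMD. The rows were taken by gene name, and the set was chosen by the readout: in some models IL18BP had a smaller rise with interferon gamma (IFNγ) under doxycycline than without it. All differences of IL18BP between groups are therefore given as a description, with no test. Of the 8 genes, 4 passed the filter on low counts (IL18BP, CASP1, GSDMD and NLRP1), 4 did not (IL18, CASP4, AIM2 and PYCARD), and 1 of these, IL18, had no count in any library.

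In this pathway, sensors such as AIM2, which binds DNA in the cytosol, and NLRP1 assemble with the adaptor PYCARD into an inflammasome that activates caspase-1. Caspase-4 is activated directly by bacterial lipopolysaccharide in the cytosol. Both caspases cleave gasdermin D, whose released amino-terminal part forms pores in the plasma membrane, and caspase-1 also matures IL18, a cytokine that drives IFNγ production in lymphocytes and is bound and blocked outside the cell by IL18BP. IL18BP, CASP1, CASP4, GSDMD and AIM2 are known as interferon-inducible genes, and IL18BP is a classical feedback target of IFNγ.

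RNA from SK-N-DZ, a neuroblastoma cell line with amplified MYCN and without ARID1A mutation, was sequenced in 4 groups of 3 libraries. All groups came from a line that carries a doxycycline-inducible hairpin against ARID1A, a subunit of the SWI/SNF chromatin remodeller. The groups were the untreated control (C), doxycycline for 4 days (D), IFNγ for 24 h (I) and both (DI), and the labels give the genotype as WT for C and I and as shARID1A for D and DI. The line is a clone picked after lentiviral delivery of the hairpin, which of the hairpins was sequenced is not given in the sources used here, and no library received doxycycline without carrying the hairpin. Doxycycline itself, the hairpin and loss of ARID1A thus cannot be told apart. Nothing in the labels says that the 3 libraries of a group came from separate cultures, so the p-values measure only the spread between these libraries.

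Counts per library ranged from 16469832 to 21790869. CPM denotes counts per 1000000 counts of the TMM-scaled library, and 3 counts, used as the detection floor per library, equalled 0.135 to 0.187 CPM. The targeted gene ARID1A was measured at 197, 186 and 165 CPM in the C libraries and at 197, 159 and 158 CPM in the D libraries. With IFNγ it stood at 192, 203 and 194 CPM (I) and at 151, 133 and 148 CPM (DI). The D and C libraries overlapped and the DI libraries were all below the I libraries. Averaged over the IFNγ arms, ARID1A differed between groups with and without doxycycline by −0.27 on the log2 scale (SE 0.08, edgeR adjusted p = 0.0607). This difference did not pass the threshold of 0.05 in the fit with no term for the replicate number. IRF1, an IFNγ-induced gene taken as a check of the labels, was higher with IFNγ averaged over both arms, by 7.44 on the log2 scale (SE 0.12, edgeR adjusted p = 7.23e-11). The summed level of 10 adrenergic neuroblastoma markers was 4300 to 5697 CPM in the 12 libraries. The sum does not show single markers. PHOX2A was called higher with IFNγ averaged over arms (0.38 on the log2 scale, SE 0.06, edgeR adjusted p = 0.00533). TH was called lower with doxycycline averaged over arms (−3.82, SE 0.94, edgeR adjusted p = 0.0349). In each of these comparisons the other 9 markers were not called.

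The IL18BP sequence upstream of a RefSeq start site is shown, with that of AIM2, because these were the examined promoter windows in which interferon motifs were found. Windows run from 250 bases before to 50 after the start site (RefSeq, GRCh38.p14). GSDMD was left out of this search, so nothing is said of its promoter. Of the other members, windows were found for 4: IL18BP with 4 start sites, CASP4, AIM2 and PYCARD. Both strands were searched for the core of the interferon-stimulated response element (ISRE: GAAA, any 2 bases, GAAA) and for the gamma-activated site (TTCNNNGAA, which reads the same on both strands). The ISRE core occurred in 3.57% and the gamma-activated motif in 7.66% of all 35116 promoter windows of that length. Capitals mark the matches. The first window lies at chr11:71999367-71999666 on the plus strand, and the second at chr1:159076717-159077016 on the minus strand, printed in the direction of transcription.
IL18BP: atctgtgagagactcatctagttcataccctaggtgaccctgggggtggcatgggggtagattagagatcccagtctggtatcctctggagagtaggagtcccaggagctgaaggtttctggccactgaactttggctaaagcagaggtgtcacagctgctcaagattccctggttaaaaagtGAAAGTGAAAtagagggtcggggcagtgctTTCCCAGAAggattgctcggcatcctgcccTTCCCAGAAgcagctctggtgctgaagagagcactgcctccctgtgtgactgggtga
AIM2: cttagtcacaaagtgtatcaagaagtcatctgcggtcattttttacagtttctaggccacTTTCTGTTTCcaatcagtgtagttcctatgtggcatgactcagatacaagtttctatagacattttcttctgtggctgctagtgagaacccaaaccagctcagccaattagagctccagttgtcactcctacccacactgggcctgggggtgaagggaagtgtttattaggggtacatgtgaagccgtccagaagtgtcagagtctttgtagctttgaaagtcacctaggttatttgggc
The IL18BP window held 1 ISRE core, whose first base lies at −67 from the start site, and 2 gamma-activated motifs with the same letters at −37 and −7. The AIM2 window held 1 ISRE core on the opposite strand, at −190, and no gamma-activated motif. In the other 3 windows of IL18BP and in those of CASP4 and PYCARD neither motif was found. A match of letters is a description of the window only, and binding was not measured here.

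IL18BP, the soluble antagonist of IL18, was higher in every library with IFNγ than in those without it. The C libraries held it at 7.13, 7.25 and 6.98 CPM and the D libraries at 8.49, 9.83 and 8.57 CPM. With IFNγ alone it reached 116, 105 and 120 CPM, and with IFNγ and doxycycline 61.2, 39.0 and 58.6 CPM. The 4 groups did not overlap, and the DI libraries lay between the groups without IFNγ and the I libraries. Group means were 7.12 ± 0.135 CPM (C), 8.96 ± 0.754 CPM (D), 113 ± 7.96 CPM (I) and 53.0 ± 12.2 CPM (DI; SD, n = 3 each). Averaged over both arms, the IFNγ difference of IL18BP was 3.28 on the log2 scale (SE 0.12), a 9.70-fold change, and it ran from 3.19 to 3.44 over the fits that left out a library or a replicate number.

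The rise that led to the choice of IL18BP was 3.99 on the log2 scale (SE 0.18) for I against C and 2.56 (SE 0.17) for DI against D. The difference of these rises was −1.43 (SE 0.23), it was −1.45 (SE 0.19) with a block for the replicate number within each doxycycline arm and −1.43 (SE 0.27) by DESeq2, and the fits that left out a library or a replicate number gave −1.57 to −1.23. Without D replicate 2 and DI replicate 2 together, chosen after seeing the data, the difference was −1.18 (SE 0.14). Seen along the other side of the design, IL18BP was 0.33 higher in D than in C (SE 0.16) and 1.10 lower in DI than in I on the log2 scale (−1.10, SE 0.16). These values chose the gene and were not tested.

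Averaged over both IFNγ arms, the doxycycline difference of IL18BP was −0.38 on the log2 scale (SE 0.11) and −0.39 (SE 0.10) with the replicate number as a block, an average of a positive and a negative difference that describes neither arm.

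IL18BP lies at chr11:71998541-72005715 on the plus strand (GRCh38, GENCODE 29) and shares 675 exon bases, 15.6% of its exons, with NUMA1 on the opposite strand. Without strand information in the counting, reads there cannot be told apart. NUMA1 had 5593 to 12203 counts per library, many more than IL18BP, and its IFNγ change averaged over arms was 0.16 on the log2 scale (SE 0.14, edgeR adjusted p = 0.816).

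**Figure D1:**
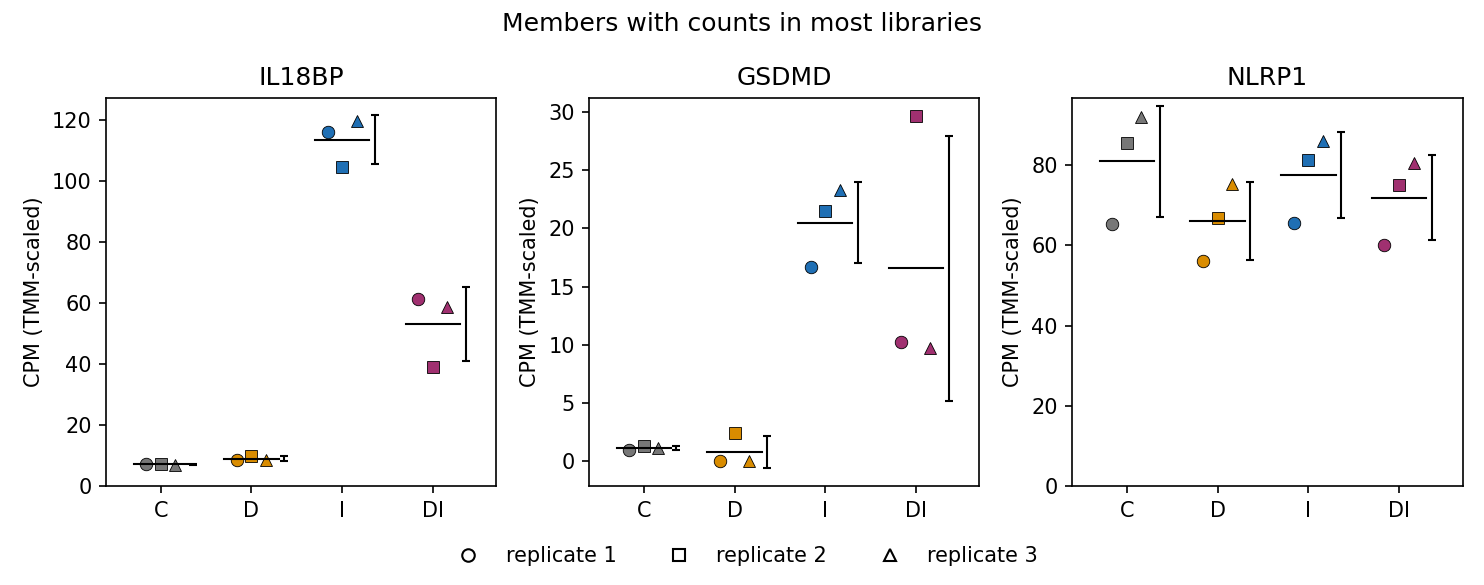
CPM of IL18BP, GSDMD and NLRP1 (y axes, linear) in the 4 groups of 3 libraries (x axes: C control, D doxycycline, I IFNγ, DI both); symbols are replicate numbers, horizontal lines group means and bars the SD. IL18BP lies at 39.0 to 61.2 CPM in DI and 105 to 120 in I, GSDMD is at 0 in 2 of the 3 D libraries, and NLRP1 overlaps in all groups.

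The cytokine itself was not detected: IL18 had 0 counts in all 12 libraries, which at this depth allows up to 0.135 to 0.187 CPM. The chains of its receptor, IL18R1 and IL18RAP, were also at 0 in all libraries. PYCARD, the adaptor that links sensors to caspase-1, had 2 counts in DI replicate 1 and none in the other libraries, and the antisense gene PYCARD-AS1, which covers 59.7% of its exon bases, had none. Neither IL18 nor PYCARD can be compared between groups at this depth.

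NLRP1, a sensor that is held inactive by the peptidases DPP8 and DPP9, was the most abundant member without IFNγ, and no change with IFNγ was detected. The C libraries held 65.4, 85.6 and 91.9 CPM and the D libraries 56.0, 66.8 and 75.4 CPM. With IFNγ the values were 65.6, 81.2 and 86.1 CPM (I) and 60.0, 74.9 and 80.5 CPM (DI). All 4 groups overlapped, and replicate 1 was the lowest in each. The IFNγ change averaged over arms was 0.03 on the log2 scale (SE 0.12, edgeR adjusted p = 0.991). For D against C it was −0.29 (SE 0.17, edgeR adjusted p = 0.489), and for the average over IFNγ arms −0.20 (SE 0.12, edgeR adjusted p = 0.348). With the replicate number as a block, NLRP1 fell with doxycycline by 0.29 on the log2 scale for D against C (SE 0.06, edgeR adjusted p = 0.0130) and by 0.20 on average (SE 0.04, edgeR adjusted p = 0.00657), in fits that called 13.9% and 29% of all tested genes in either direction. Without the block, the value for DI against I was −0.11 (SE 0.17, edgeR adjusted p = 0.878).

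AIM2, the cytosolic DNA sensor, was counted in few reads. The C libraries had 0, 0 and 1 counts and the D libraries 0, 0 and 3. With IFNγ there were 18, 11 and 5 counts (I) and 5, 9 and 0 counts (DI). The I libraries all lay above the C libraries, whereas DI overlapped with both D and I. By counts pooled over libraries and scaled for depth, I stood 31.0 times above C (95% counting interval 5.19 to 1258, exact permutation p = 0.1, two-sided), DI 4.39 times above D (1.23 to 23.8, exact permutation p = 0.4), and DI at 0.388 times I (0.192 to 0.742, exact permutation p = 0.2). With 3 libraries against 3 the smallest p that the exact test can give is 0.1, and the intervals cover counting error only.

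CASP1, the protease of the inflammasome, was detected in all libraries with IFNγ and in none without it. It had 0 counts in each C and D library, 27, 23 and 10 in I, and 30, 11 and 10 in DI. Against a floor of 3 counts per library, CASP1 was at least 5.99-fold higher in I than in C and at least 5.41-fold higher in DI than in D (exact permutation p = 0.1 for each, the smallest possible). CASP1 passed the filter on low counts through the IFNγ libraries alone and so had to differ, and its fitted p-values with IFNγ are not given. DI and I overlapped, with a ratio of 0.801 (95% counting interval 0.540 to 1.18, exact permutation p = 0.9) and a log2 difference of −0.29 (SE 0.67, edgeR adjusted p = 0.932).

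Reads of CASP1 can also be assigned to the related decoy genes beside it: CARD16 had at most 3 counts in a library, and CARD17, CARD18 and CASP5 had none.

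CASP4, the caspase that senses lipopolysaccharide, had 0, 1 and 0 counts in the C libraries and none in the D libraries. With IFNγ the counts were 12, 16 and 2 (I) and 7, 2 and 1 (DI). All I libraries were above all C libraries and all DI above all D, while I and DI overlapped. By pooled counts scaled for depth, I was 27.3 times C (95% counting interval 4.54 to 1114, exact permutation p = 0.1), and DI was at least 1.07-fold higher than D, taken at the floor (exact permutation p = 0.1). DI was at 0.314 times I (0.137 to 0.660, exact permutation p = 0.2). DESeq2, and edgeR with no filter on low counts, called CASP4 higher with IFNγ averaged over arms.

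**Figure D2:**
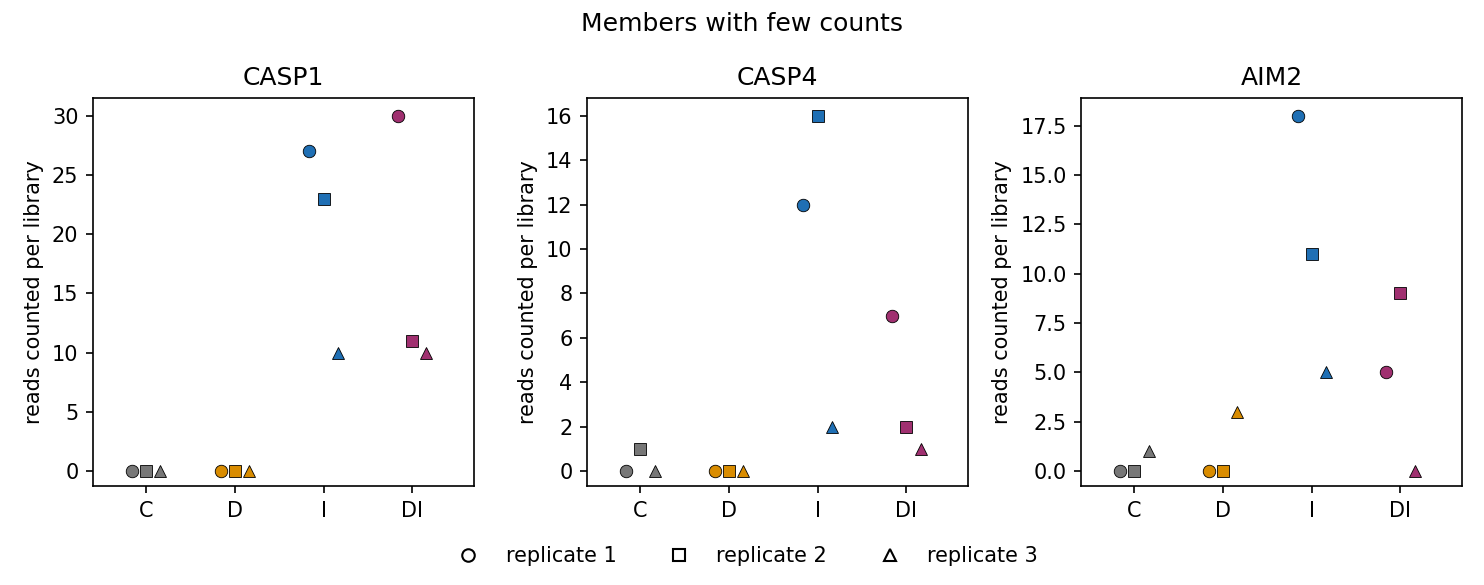
Reads counted per library (y axes, linear) for CASP1, CASP4 and AIM2 in C, D, I and DI (x axes), with symbols for the replicate numbers. CASP1 has 10 to 30 counts in the libraries with IFNγ and 0 in the others, and replicate 3 is the lowest library of I and of DI for each of the 3 genes.

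In both I and DI, replicate 3 had the fewest counts of CASP1, CASP4 and AIM2. IFI16, a DNA sensor related to AIM2, went the same way, with 585, 501 and 14 counts in the I libraries and 171, 291 and 8 in the DI libraries. In the same libraries, I replicate 3 and DI replicate 3, IRF1 was at 443 and 383 CPM, against 342 to 409 CPM in the other IFNγ libraries. The part of this difference between replicates in the CASP1, CASP4 and AIM2 values was not tested.

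GSDMD, the pore former, rose with IFNγ, and its level under doxycycline differed among replicates. The C libraries held 0.984, 1.29 and 1.12 CPM and the D libraries 0, 2.43 and 0 CPM. With IFNγ the values were 16.7, 21.5 and 23.3 CPM (I) and 10.3, 29.7 and 9.77 CPM (DI). Every IFNγ library was above every library without IFNγ, D replicate 2 and DI replicate 2 were each the highest of their IFNγ state, and D replicates 1 and 3 had no count. Averaged over arms the IFNγ change was 4.25 on the log2 scale (SE 0.78, edgeR adjusted p = 0.00837), a call lost without replicate number 1 (edgeR adjusted p = 0.178) or 3 (0.0681) and kept without any single library. Within the arms it was 4.17 for I against C (SE 1.09, edgeR adjusted p = 0.1003) and 4.34 for DI against D (SE 1.11, edgeR adjusted p = 0.114), neither past the threshold. With the replicate number as a block these were 4.31 (SE 0.71, edgeR adjusted p = 0.00367) and 4.49 (SE 0.73, edgeR adjusted p = 0.00425), both past it, in fits that called 4.88% and 3.77% of all tested genes higher. The value for I against C also passed without D replicate 1, 2 or 3 (edgeR adjusted p = 0.0457, 0.00116 and 0.0464) or replicate number 2 (0.00209), and that for DI against D without D replicate 2 (edgeR adjusted p = 4.08e-04) or replicate number 2 (6.68e-04), which left D at 0. The exact permutation p was 0.1 for each arm, the smallest possible.

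For doxycycline, GSDMD differed by −0.48 for D against C and −0.31 for DI against I on the log2 scale, and by −0.39 on average (SE 0.72, edgeR adjusted p = 0.799). The averages hide the split among replicates. In D replicates 1 and 3, GSDMD was below the floor of 0.158 CPM, so that C, at 1.13 CPM, was at least 7.15-fold higher than those libraries, and DI replicates 1 and 3 were at least 63.3-fold higher than them. Without D replicate 2 the averaged doxycycline effect passed the threshold in the direction of lower GSDMD (edgeR adjusted p = 0.0161), as did D against C (edgeR adjusted p = 0.0485), but the fitted folds then compare with a group at 0 and are not given. D replicate 2 and DI replicate 2 also stood apart in other genes, named after their values were seen. TXNIP, a thioredoxin inhibitor that can bind NLRP3, was at 189 CPM in D replicate 2 and 248 in DI replicate 2, against 60.9 to 76.9 in the other doxycycline libraries and 161 to 223 without doxycycline. DBH, the noradrenaline-forming enzyme of adrenergic cells, was at 371 and 417 CPM in these libraries, against 79.1 to 108 in the other doxycycline libraries and 238 to 442 without. ARID1A in D replicate 2 and DI replicate 2 was at 159 and 133 CPM, within or below the range of the other libraries of their groups. The part of these differences in the GSDMD values was not tested.

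**Figure D3:**
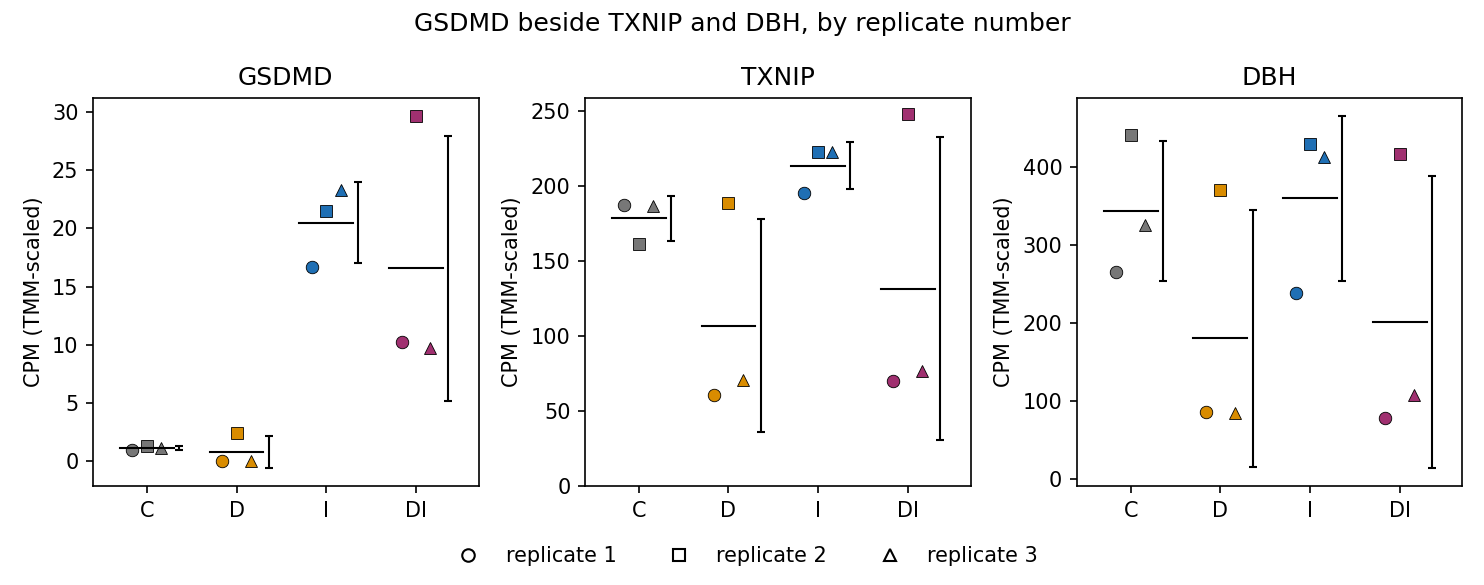
CPM of GSDMD, TXNIP and DBH (y axes, linear) by group (x axes), with symbols for replicate numbers, horizontal lines for means and bars for the SD of 3 libraries. In D and DI, replicate 2 lies above replicates 1 and 3 for each gene. In C and I, replicate 2 is also the highest for DBH, and in C for GSDMD, over narrower ranges (DBH 238 to 442 CPM, GSDMD 0.984 to 1.29 CPM in C).

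Of the 4 members in the fit, GSDMD and NLRP1 are those whose difference with IFNγ was neither used by the rule for the set nor fixed by the filter. Averaged over arms, 1 of these 2 (GSDMD) was called higher, where 3.41% of all 15828 genes tested were. The fit also put IL18BP and CASP1 past the threshold, from which nothing is read, since IL18BP was chosen by its rises and CASP1 had to differ to pass the filter. For I against C and for DI against D, neither GSDMD nor NLRP1 was called, where 2.1% and 1.67% of all tested genes were called higher, and GSDMD was called in both with the replicate block as given above. With doxycycline and no block, edgeR called neither GSDMD nor NLRP1 averaged over IFNγ arms (7.68% of all tested genes called in either direction), for D against C (1.23%) or for DI against I (0.67%). CASP1 was at 0 in both C and D and was not called for DI against I. For these genes no unadjusted p with doxycycline was under 0.05 and DESeq2 called none, whereas the replicate block called NLRP1 lower on average and for D against C.

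On GRCh38 (GENCODE 29), IL18 lies at chr11:112143251-112164117, and CASP1 and CASP4 lie near each other on the same chromosome, at chr11:105025443-105035250 and chr11:104942866-104969436. GSDMD lies at chr8:143553207-143563062, AIM2 at chr1:159062484-159147096, PYCARD at chr16:31201485-31203450 and NLRP1 at chr17:5499427-5619424. Values are counts over whole genes, so no exon or transcript is set apart. Levels per kilobase of exon allow an order of the members. In C the order was NLRP1 (6.32 ± 1.08 CPM per kb), IL18BP (1.65 ± 0.0312) and GSDMD (0.221 ± 0.0301), with the others near or at 0. In I it was IL18BP (26.2 ± 1.84), NLRP1 (6.06 ± 0.837), GSDMD (4.01 ± 0.673), AIM2 (0.291 ± 0.157), CASP1 (0.281 ± 0.121) and CASP4 (0.0722 ± 0.0536). The ranges of mean ± SD overlapped for AIM2 and CASP1 in I, and for NLRP1 (5.61 ± 0.827) and GSDMD (3.24 ± 2.22) in DI, where IL18BP (12.3 ± 2.81) was again the most abundant.

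Of 64 other genes of the pathway, 15 were at 0 in all libraries and 33 were tested. With IFNγ averaged over arms, 8 of the 33 were called higher and 0 lower (24.2%, beside the 3.41% called higher among all tested genes). The median log2 change of the 33 was 0.18 against −0.01 over all tested genes. The 8 include IRF8 and IFI16, which passed the filter wholly or mainly through the IFNγ libraries, so the share is a description. Of the factors that act on these promoters, 4 of 7 rose, among them IRF1, the activator of many interferon-stimulated genes, IRF2 (2.19, SE 0.16, edgeR adjusted p = 5.85e-06), which binds the same element as IRF1, and IRF8, an interferon-regulatory factor of myeloid cells with 0 counts without IFNγ and 221 to 869 with it, which like CASP1 passed the filter through the IFNγ libraries alone. Of the caspases, gasdermins and decoys, 2 of 9 tested rose, among them CASP8, the initiator of death receptor signalling (2.69, SE 0.35, edgeR adjusted p = 7.32e-04). Of the sensors 1 of 5 was called higher, IFI16 (5.48, SE 1.19). It had 0 to 9 counts in C and 0 to 17 in D, and passed the filter mainly through the IFNγ libraries. The p of this average is therefore not given. Within the arms IFI16 was not called, and for the same reason nothing is read from that. Its libraries lay far apart, at 14 to 585 counts in I and 8 to 291 in DI. Of the IL-1 family genes 1 of 5 rose, MYD88, the adaptor below the IL18 receptor (1.11, SE 0.17, edgeR adjusted p = 0.00276), and of the modulators 0 of 7 did.

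With doxycycline averaged over IFNγ arms, NLRC4, from the list of sensors, rose by 1.07 on the log2 scale (SE 0.23, edgeR adjusted p = 0.0189). Counts were 12 to 20 (C) and 16 to 25 (I) without doxycycline, and 31 to 54 (D) and 31 to 46 (DI) with it. NEK7, a kinase that NLRP3 needs to assemble, fell by 1.09 (SE 0.17, edgeR adjusted p = 0.00564), from 52.3 ± 13.1 CPM in C and 55.3 ± 11.6 in I to 24.2 ± 5.73 in D and 26.3 ± 5.53 in DI. The other 31 tested genes of the pathway were not called. The 2 calls are 6.06% of the 33, below the 7.68% of all tested genes called in that comparison. For D against C and for DI against I none of the 33 was called without the replicate block, where 1.23% and 0.67% of all tested genes were. NLRP3 itself had 0 to 34 counts per library and was not called (edgeR adjusted p = 0.322 with IFNγ and 0.282 with doxycycline).

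The 2 arms share no library, and for genes outside the set the difference between arms was not tested, so their values are given side by side, I against C first. IRF1 changed by 7.58 and 7.30 on the log2 scale and IRF2 by 2.24 and 2.14, each past the threshold in both arms. Without the replicate block, CASP8 changed by 3.25 (SE 0.52, edgeR adjusted p = 0.00463) and 2.12 (SE 0.48, edgeR adjusted p = 0.0615), and MYD88 by 1.21 (SE 0.24, edgeR adjusted p = 0.0238) and 1.00 (SE 0.24, edgeR adjusted p = 0.0862). IRF8, at 0 without IFNγ, passed the filter through the IFNγ libraries alone, so nothing is read from its calls in the arms.

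**Figure D4:**
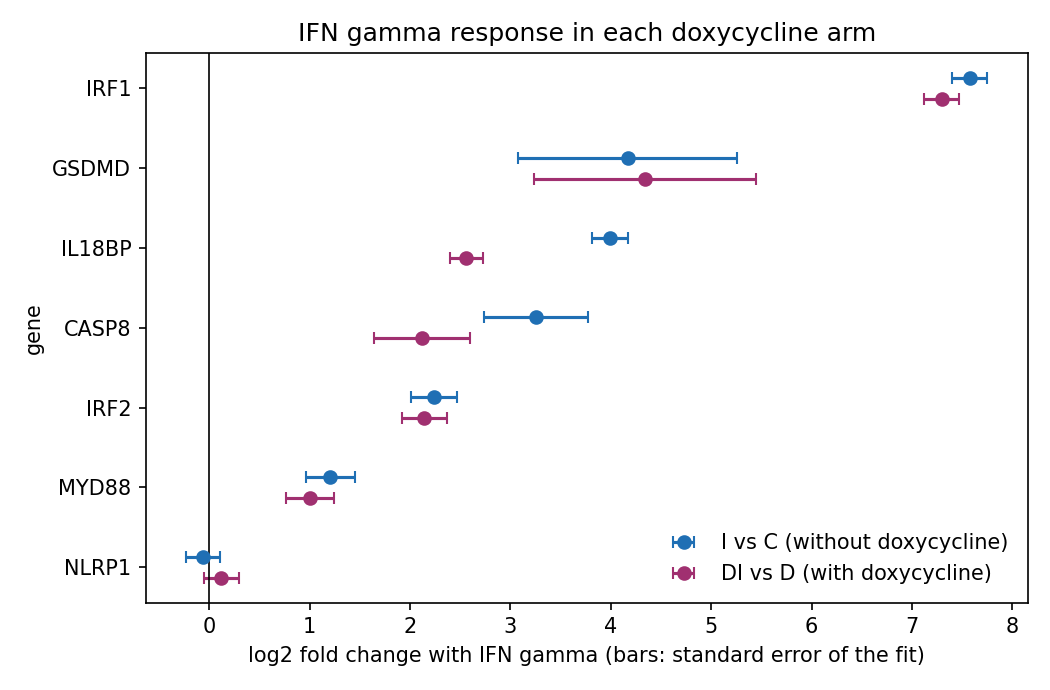
log2 fold change with IFNγ (x axis) for 7 genes (y axis), with I against C in blue and DI against D in purple and the standard error of the fit as bars. The IL18BP values are 3.99 and 2.56, IRF2 lies at 2.24 and 2.14, and NLRP1 is near 0 in both arms. CASP1 and IRF8 are left out because they had no counts without IFNγ.

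The genes whose pattern over the 12 libraries was most like that of IL18BP, by Pearson correlation of log2 CPM among 13960 tested genes with a mean of at least 1 CPM, were SAMHD1 (r = 0.988), IFIT2 (0.986), DDX60 (0.985), LOC105379340 (0.982) and IFI27 (0.982). SAMHD1, a nucleotide-cleaving restriction factor, had group means of 64.2 CPM (C), 72.1 CPM (D), 456 CPM (I) and 288 CPM (DI). IFI27 had means of 0.638, 0.493, 96.0 and 27.4 CPM in the same order. For CASP1 they included CCR7 (0.987), XAF1 (0.987), SP140L (0.981) and STARD8 (0.980). The points share the libraries and the IFNγ step, so high values are given by the design, and these r are descriptions.

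CCR7 is best known from lymphocytes, and CASP1, AIM2 and IRF8 are abundant in myeloid cells. Of the 7 lymphoid markers, 5, among them CD3E, CD3D, CD2 and MS4A1, were at 0 in all libraries, and the summed level of the list was 0 to 0.369 CPM (C), 0.155 to 0.637 CPM (D), 0.109 to 0.210 CPM (I) and 0.0513 to 0.513 CPM (DI). The summed level of 8 myeloid markers was 0.984 to 1.54 CPM (C), 0.763 to 0.983 CPM (D), 0.742 to 2.40 CPM (I) and 0.564 to 0.975 CPM (DI). PTPRC, expressed by all leukocytes, was at 0 to 0.721 CPM. The 6 fibroblast markers summed to 45.5 to 72.7 CPM (C), 33.0 to 71.8 CPM (D), 71.8 to 122 CPM (I) and 57.6 to 101 CPM (DI). Of these 6, 1 was called higher with IFNγ averaged over arms, COL1A2 (1.51 on the log2 scale, SE 0.37, edgeR adjusted p = 0.0466). The others were not called and went both ways. DCN and PDGFRB were higher (1.20 and 0.86), and COL1A1, COL3A1 and LUM lower (−1.02, −0.34 and −1.06). The 3 endothelial markers summed to 0.125 to 2.27 CPM (C), 0.116 to 1.81 CPM (D), 1.31 to 2.95 CPM (I) and 0.676 to 2.00 CPM (DI). The part of the fibroblast and endothelial markers in the IFNγ differences was not tested. In bulk RNA, fewer cells with a transcript and less of it per cell cannot be told apart.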

How the data were processed

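RNA-seq of 12 SK-N-DZ libraries (paired-end 150, NovaSeq) was deposited as raw counts per gene made by the authors. The aligner, counter, strand setting and genome build are not given in the sources used here. Positions come from GENCODE 29 (GRCh38), which lists each of the 43769 identifiers. The authors' comparison tables (log2 fold changes, p-values and adjusted p-values) and 18 library columns with unexplained names were not used. Counts per library were 16469832 to 21790869.

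Counts were scaled by TMM, filtered (filterByExpr, minimum count 10) and tested with edgeR 4.0.16 (R 4.3.3, limma 3.58.1) by quasi-likelihood, all 4 groups in a single model, two-sided, with BH adjustment over 15828 genes and a threshold of 0.05. Genes left out by the filter were compared by exact permutation tests of CPM. Likeness used log2 CPM with a prior count of 2. DESeq2 1.42.0, other scalings, no filter, the libraries of 2 groups, replicate blocks and leaving out libraries were the alternatives, and the code was tested on simulated data.

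Libraries with the same replicate number deviated together (r of 0.338 to 0.804 over 18 pairs between groups, against −0.628 to 0.143 over 36 pairs with other numbers), so blocked values are given where they change a call of a member. For genes outside the set, ARID1A among them, only values without the block are given, and the block could change their calls. Replicates differed beyond counting noise (chi-square per gene 18.4 to 78.6). The members, gene lists and the rule for named genes (all 8 members, up to 4 called genes of each list, the 5 most alike genes) were chosen with earlier results of these data known; the naming rule has exceptions that the text marks. Some genes that the rule names are not reported here.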

Additional observations from a re-analysis of the deposited data

How the results depend on the processing

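Counts that include IL18BP or CASP1 are descriptions. The share of all tested genes called was worked out only for the fit with no block and for some fits with the replicate block. The other counts have no share beside them and are not read as results about the members. With IFNγ averaged over arms, 3 members (IL18BP, CASP1 and GSDMD) were called under all normalizations and both replicate block fits, 4 by DESeq2 and without the filter on low counts, and 1 to 4 when a library or a replicate number was left out, with 1 without replicate number 1. Of the 3, only GSDMD was neither chosen by the rule nor fixed by the filter. The fit with no block called 3.41% of all tested genes higher. With doxycycline averaged over arms, DESeq2 called 1 member, the replicate block 2, and leave-outs 0 to 2, against 0. These counts take in IL18BP, which the rule chose, and nothing is read from its calls. The other member called with the block was NLRP1, in a fit that called 29% of all tested genes, against 7.68% without the block. For I against C the count other than IL18BP was 2 without the filter, with the replicate block and with the block within doxycycline arms, and 0 to 2 over leave-outs, against 1. For DI against D it was likewise 2 in these 3 fits, 0 with only the libraries of the 2 groups, and 0 to 1 over leave-outs, against 1. In both comparisons the 1 of the fit with no block was CASP1, which had to differ to pass the filter, so nothing is read from it. The fits with the replicate block called 4.88% (I against C) and 3.77% (DI against D) of all tested genes higher, against 2.1% and 1.67% without it. For D against C leave-outs gave 0 to 1, against 0. The replicate block gave 1 (NLRP1) there, in a fit that called 13.9% of all tested genes, against 1.23% without the block. Beyond these changes, the replicate block changed no call of a member. Without D replicate 2 and DI replicate 2 together, chosen after seeing the data, the counts were 3, 2, 2, 1, 1 and 0 in the order IFNγ averaged, doxycycline averaged, I against C, DI against D, D against C and DI against I.

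Some signs turned. NLRP1 with IFNγ averaged over arms was −0.011 with library size alone and −0.036 to 0.088 over leave-outs, −0.20 to 0.043 for I against C, and −0.21 to 0.00031 for DI against I. CASP1 ran from −1.03 to 0.095 for DI against I. GSDMD ran from −4.24 to 0.076 for doxycycline averaged, −7.44 to 0.12 for D against C and −1.04 to 0.085 for DI against I, where the values below −3 are fits with D at 0. The averaged doxycycline value of IL18BP ran from −0.44 to −0.30 over leave-outs. The causes were not tested. The block within doxycycline arms was not run for comparisons between those arms, since the block is nested in them. Depth limits IL18, PYCARD, AIM2 and CASP4, which had at most 18 counts in a library.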
